A study of Mus musculus with 6 samples.

Results

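A set of 10 genes that gastric parietal cells use to secrete acid were followed in the stomach antrum of mice of 3 strains. The genes were Atp4a, Atp4b, Slc4a2, Esrrg, Kcnq1, Kcne2, Clic6, Car2, Ckb and Aqp4. Every probe set that the platform annotation assigns to 1 of these 10 symbols was taken, which gave 10 of the 22690 probe sets on the array. They covered 9 of the 12393 genes that its single-gene probe sets name, with 2 probe sets for Aqp4 and 1 for each of the others. Clic6, a chloride intracellular channel protein of parietal cells, was not analysed here, since no listed probe set carries its symbol.

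Whole antral RNA was hybridised on Affymetrix expression arrays, 2 arrays per strain and 6 arrays in all. The Satin mice carry a coat mutation in the forkhead transcription factor gene Foxq1, and the series was set up to look at gastric cell lineages in relation to it. The Beige mice, whose coat mutation lies in Lyst, and the C57/BL6 (here BL6) mice were both titled as controls. No treatment was named for any strain, and neither the age of the mice nor the background of the Satin and Beige strains is stated. The design text speaks of 2 mice per strain but does not state that each array holds the RNA of 1 animal, so the errors measure the spread between these arrays.

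Median signals were 74.15 and 58.6 on the Satin arrays, against 38.2 to 49.5 on the 4 control arrays. Transcripts of pancreatic acinar cells were abundant on 1 array of each strain. The signals of 7 acinar genes, including Cpa1, Ctrb1 and Cela3b, were summed, each gene by its brightest probe set. The sum was 1519.5 and 39953.8 on Satin replicates 1 and 2, 2074.7 and 10852.4 for the Beige pair, and 2004.1 and 71135.4 for the BL6 pair. RNA integrity was read from the 5' signal of Gapdh divided by its 3' signal, which came to 1.18 and 1.16 for Satin, 1.02 and 0.99 for Beige, and 0.526 (replicate 1) and 0.988 (replicate 2) for BL6. Gast, which encodes the antral hormone gastrin, had 1456.9 and 2580.4 in Satin, 3724.3 and 5086.6 in Beige, and 3298.8 and 3392.4 in BL6. This antral transcript was present on every array but lowest on Satin replicate 1, the array with the highest median signal. Whether that goes with the levels of the acid secretion genes was not tested.

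Parietal cells acidify the stomach through a proton pump in their apical membrane, which exchanges cytosolic protons for luminal potassium at the cost of ATP. Atp4a encodes its catalytic alpha subunit and Atp4b its glycosylated beta subunit. The potassium that the pump takes up is returned to the lumen through a channel formed by KCNQ1 and its accessory subunit KCNE2. Carbonic anhydrase 2, the product of Car2, makes protons and bicarbonate from carbon dioxide and water, and the bicarbonate leaves on the basolateral side in exchange for chloride through SLC4A2 (AE2). Esrrg encodes an orphan nuclear receptor linked in mouse stomach to the ion transport and metabolic genes of parietal cells. Ckb encodes the brain-type creatine kinase, which buffers ATP near its users, and Aqp4 a water channel of the basolateral membrane. Parietal cells are most numerous in the corpus, and the antrum holds fewer of them.

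The promoters of 3 of these genes are shown because the genes carry different roles, pump, anion exchanger and potassium channel subunit, and differ in promoter type. The sequences are the RefSeq promoters of the mouse assembly GRCm38.p6, from 250 bases before to 50 bases after the start, on the plus strand, with each CG dinucleotide in capitals. Atp4a lies at chr7:30711959-30712258, Slc4a2 at chr5:24424982-24425281 and Kcne2 at chr16:92292139-92292438.
Atp4a: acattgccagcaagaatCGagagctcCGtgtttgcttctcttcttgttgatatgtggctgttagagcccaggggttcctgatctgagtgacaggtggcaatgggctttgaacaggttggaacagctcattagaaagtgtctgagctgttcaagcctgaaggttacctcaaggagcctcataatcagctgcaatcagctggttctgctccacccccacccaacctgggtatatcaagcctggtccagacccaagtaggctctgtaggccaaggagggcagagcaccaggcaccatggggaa
Slc4a2: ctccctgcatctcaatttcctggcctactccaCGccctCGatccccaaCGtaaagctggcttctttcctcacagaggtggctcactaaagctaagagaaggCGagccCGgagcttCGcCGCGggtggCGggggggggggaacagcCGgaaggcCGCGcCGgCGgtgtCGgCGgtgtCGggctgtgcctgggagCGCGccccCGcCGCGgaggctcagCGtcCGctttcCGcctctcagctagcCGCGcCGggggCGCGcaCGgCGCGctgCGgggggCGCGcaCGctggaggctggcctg
Kcne2: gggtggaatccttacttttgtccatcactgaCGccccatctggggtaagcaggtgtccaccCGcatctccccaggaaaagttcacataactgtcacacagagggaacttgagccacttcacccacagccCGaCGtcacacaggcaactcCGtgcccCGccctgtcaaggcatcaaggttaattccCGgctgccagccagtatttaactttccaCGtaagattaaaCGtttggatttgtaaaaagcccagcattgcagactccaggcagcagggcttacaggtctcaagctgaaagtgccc

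The Slc4a2 promoter held 37 CG dinucleotides, the Kcne2 promoter 9 and the Atp4a promoter 2, against a median of 7 over all 32851 promoters of the table. These counts stood at percentiles 94.4, 54.2 and 14.1 of that table. In all, 5 of the 10 genes had promoters there, 10 promoters together: 1 each for Atp4a and Ckb, and several for Slc4a2, Esrrg and Kcne2. The second Slc4a2 promoter held 16, the second Kcne2 promoter 1, the 4 Esrrg promoters 15, 16, 22 and 19, and the Ckb promoter 22. Both strands were searched for 3 motifs: the single site of estrogen-related receptors (AAGGTCA), a site of the factors GATA4 and GATA6 (AGATAA), and a site described in gastric proton pump promoters (GATACC). The last pair share 4 letters, but neither holds the other. AAGGTCA was found in 4.72% of all promoters, AGATAA in 11.2% and GATACC in 5.31%, and each was found in 0 of the 10 promoters of these genes. That says only that these letters are not in these windows.

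Across the strains, the acid secretion genes lay higher in Satin antrum than in the control antrum, but none of them passed the test. All 10 probe sets had a positive difference, from 0.08 for Ckb to 1.01 for Esrrg on the log2 scale. Esrrg was 2.01-fold, Slc4a2 1.91-fold, Kcne2 1.75-fold and Atp4a 1.52-fold higher in Satin than in the mean of Beige and BL6. The difference was carried mostly by Satin replicate 1, which was the highest of the 6 arrays for 9 of the 10 probe sets, as it was for 19.6% of all probe sets tested. It also lay above Satin replicate 2 in 9 of the 10, beside 52% of all. The antrum was measured whole, so more cells of a type and more RNA per cell cannot be told apart.

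The pump subunits were bright on every array. The deposited signal of Atp4a (probe set 1421286_a_at) was 6840.5 and 4667.7 on Satin replicates 1 and 2, 4008.1 and 3430.0 in Beige, and 1691.8 and 4072.2 in BL6. Satin replicate 1 was the highest and BL6 replicate 1 by far the lowest. After log2 conversion and quantile normalization, the scale of every difference and mean that follows, Atp4a averaged 12.32 ± 0.54 in Satin, 11.87 ± 0.39 in Beige and 11.57 ± 0.65 in BL6 (SD, n = 2 each). Satin replicate 2, at 11.94, lay below Beige replicate 1 at 12.14 and BL6 replicate 2 at 12.03, so the strains overlapped. The difference between Satin and the mean of the controls was 0.60 (SE 0.29, 95% interval -0.06 to 1.27, adjusted p = 0.486).

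Atp4b (1448911_at) had signals of 8809.9 and 5837.6 in Satin, 5807.1 and 5693.5 in Beige, and 4001.2 and 4413.2 in BL6. On the deposited scale both Satin arrays lay above the other 4, the second of them by little. After normalization the means were 12.70 ± 0.50 in Satin, 12.51 ± 0.15 in Beige and 12.23 ± 0.12 in BL6, and Satin replicate 2, at 12.35, lay below both Beige arrays, at 12.61 and 12.40. The difference of 0.34 (SE 0.20, interval -0.11 to 0.79, adjusted p = 0.575) was smaller than that of Atp4a. The means of both subunits stood in the order Satin, Beige, BL6, and no step between neighbours in that order passed the test. Both Beige arrays lay above both BL6 arrays for Atp4b but not for Atp4a.

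Of the potassium channel subunits, the accessory subunit varied more than the pore. Kcne2 (1449421_a_at) had signals of 1161.2 and 443.2 in Satin, 359.2 and 388.4 in Beige, and 172.1 and 222.5 in BL6. It was 9.22 ± 0.88 in Satin, 8.71 ± 0.20 in Beige and 8.12 ± 0.25 in BL6, and the 2 Satin arrays, at 9.84 and 8.60, lay farther apart than those of any other of the 10 acid secretion probe sets. Satin replicate 2 lay within the Beige values of 8.85 and 8.57 and above both BL6 values, 7.94 and 8.30. The difference from the controls was 0.81 (SE 0.31, interval 0.12 to 1.5, unadjusted p = 0.0266 from limma, adjusted p = 0.336). It was 0.19 without Satin replicate 1, and 1.43 without Satin replicate 2, when Kcne2 passed (adjusted p = 0.0465), again with the spread of the control arrays.

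Kcnq1 (1449464_at), the pore-forming subunit, behaved otherwise. Its signals were 297.8 and 383.7 in Satin, 153.0 and 218.8 in Beige, and 118.1 and 272.6 in BL6, with replicate 2 above replicate 1 in each strain. Of all probe sets tested, 12.7% had that order, and Kcnq1 was the only one among the 10. On the normalized scale BL6 replicate 2, at 8.55, was the highest array and BL6 replicate 1, at 7.47, the lowest. The means of 8.18 ± 0.33 in Satin, 7.81 ± 0.10 in Beige and 8.01 ± 0.77 in BL6 differed by less than the spread between the BL6 arrays (Satin minus controls 0.26, SE 0.29, adjusted p = 0.795). The replicate 2 arrays are those with the acinar transcripts, whose part in that order was not tested.

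Slc4a2 (1416637_at), the bicarbonate exit, had the smallest p of the 10 probe sets. Its signals were 1516.3 and 830.8 in Satin, 383.8 and 449.8 in Beige, and 332.6 and 420.9 in BL6. Both Satin arrays lay above all 4 control arrays, also after normalization, at 10.25 and 9.45 in Satin, 8.94 and 8.77 in Beige, and 8.85 and 9.12 in BL6. The means were 9.85 ± 0.56 in Satin, 8.85 ± 0.12 in Beige and 8.99 ± 0.19 in BL6, and the control strains did not differ beyond their spread. Satin exceeded the mean of the controls by 0.93 (SE 0.22, interval 0.43 to 1.43, unadjusted p = 0.0022 from limma). With adjustment over all 15838 probe sets tested the p was 0.108, above the threshold of 0.05. The Satin arrays gave opposite results when left out in turn. Without Satin replicate 1 the difference was 0.53 (adjusted p = 0.938), and without Satin replicate 2 it was 1.33 (adjusted p = 0.039), past the threshold. In both cases the lone Satin array was assumed to vary like the control arrays, which gave the spread.

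Car2 (1448752_at), the cytosolic carbonic anhydrase, was nearly level. Its signals were 8038.6 and 6993.7 in Satin, 6131.7 and 7348.1 in Beige, and 6389.7 and 6485.3 in BL6. The means were 12.87 ± 0.11 in Satin, 12.78 ± 0.09 in Beige and 12.70 ± 0.27 in BL6, a difference from the controls of 0.13 (SE 0.15, interval -0.22 to 0.47, adjusted p = 0.818). The upper bound of that interval lies below the differences fitted for Slc4a2, Esrrg, Kcne2, Atp4a and the brighter Aqp4 probe set. The intervals of those probe sets overlap that of Car2, however, and no test compared the genes with each other. The highest signal of any probe set on Satin replicate 1 was 9968.1, so Car2 and Atp4b were measured in the upper part of the scale, and whether that narrowed their differences was not tested. Car2 is also made by other cells of the gastric mucosa.

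Esrrg (1421747_at), the nuclear receptor, was dim and had the largest fitted difference. Its signals were 172.2 and 98.3 in Satin, 34.4 and 37.3 in Beige, and 10.4 and 43.0 in BL6. Both Satin arrays lay above every control array, at 7.28 and 6.85 after normalization, against 6.06 and 6.19 in Beige and 5.48 and 6.50 in BL6. The difference from the mean of the controls was 1.01 (SE 0.32, interval 0.28 to 1.73, unadjusted p = 0.0119 from limma, adjusted p = 0.248). The 2 BL6 arrays differed by more from each other than either control mean from the other (7.06 ± 0.31 in Satin, 6.12 ± 0.09 in Beige and 5.99 ± 0.72 in BL6). A value of 32 was added to each signal before the log, and at signals this low that understates a fold change.

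Ckb (1455106_a_at), the creatine kinase, was the probe set on which Satin did not have the highest normalized mean. Its signals were 864.6 and 480.0 in Satin, 474.7 and 608.7 in Beige, and 258.0 and 387.3 in BL6. After normalization Beige was highest at 9.18 ± 0.04, with Satin at 9.05 ± 0.49 between it and BL6 at 8.75 ± 0.38. The Satin arrays, at 9.40 and 8.70, lay on either side of both Beige arrays (difference of Satin from the controls 0.08, SE 0.23, adjusted p = 0.923).

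The Aqp4 water channel was measured by a pair of probe sets. The first (1434449_at) had signals of 313.3 and 106.0 in Satin, 81.5 and 77.0 in Beige, and 51.7 and 85.1 in BL6. The second (1425382_a_at) had 151.2 and 56.2 in Satin, 79.4 and 39.3 in Beige, and 48.5 and 49.6 in BL6. Satin replicate 1 was the highest array in both, and Satin replicate 2 was nearer to the control arrays. The probe sets differed in size: 1434449_at exceeded the controls by 0.62 (SE 0.32, interval -0.11 to 1.36, adjusted p = 0.524) and 1425382_a_at by 0.20 (SE 0.30, interval -0.49 to 0.88, adjusted p = 0.862). In each the interval of the difference spans 0 and includes the value fitted for the other.

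**Figure D1:**
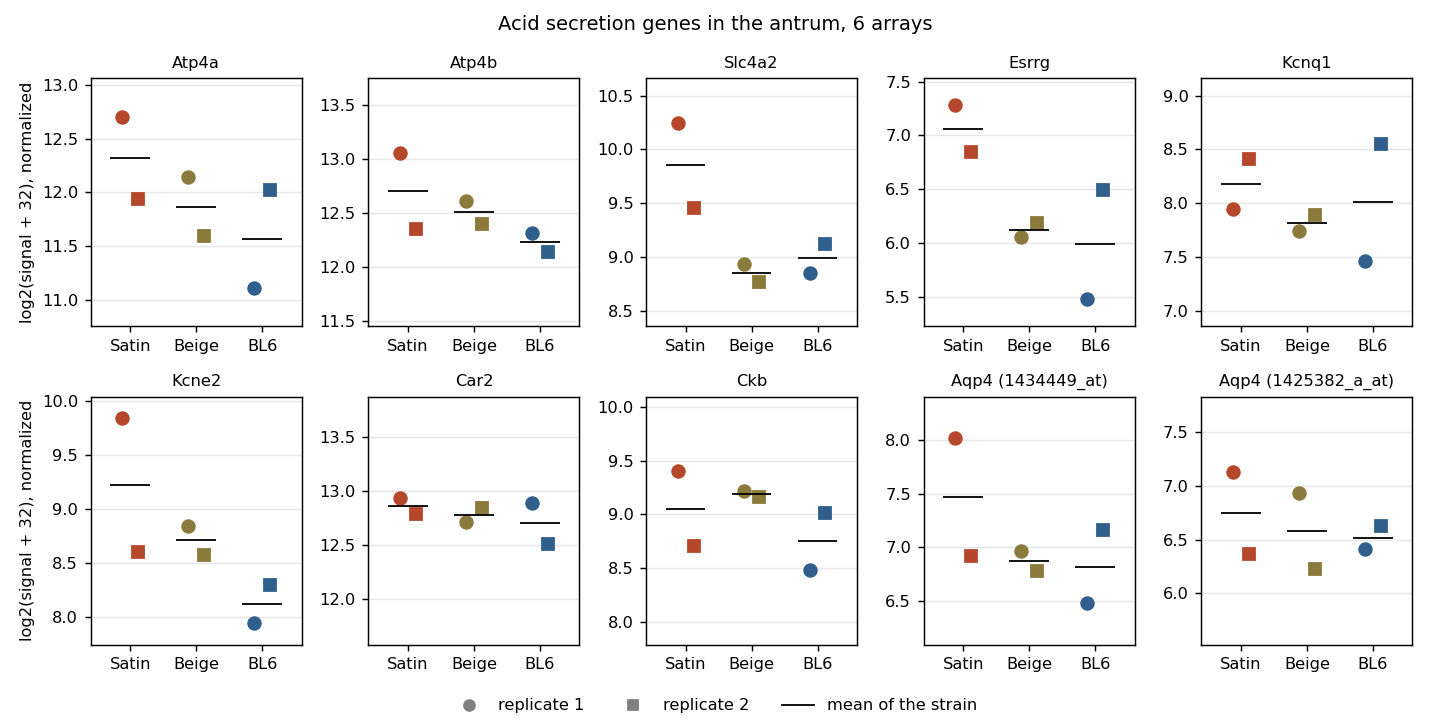
Normalized log2(signal + 32) of the 10 probe sets of acid secretion genes, 1 panel per probe set, with the Satin, Beige and BL6 arrays as points (circles replicate 1, squares replicate 2) and the strain mean as a line. Each panel has its own level but all have the same span. Satin replicate 1 is the highest array in all panels but Kcnq1, and both Satin arrays lie above all control arrays for Slc4a2 and Esrrg.

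Counted together, 0 of the 10 probe sets passed an adjusted p of 0.05 in Satin against the mean of the controls with limma, where 1.02% of all 15838 probe sets tested did. At an unadjusted p under 0.05, 3 of the 10 were higher in Satin (Slc4a2, Esrrg and Kcne2) and none was lower, beside 11.8% of all probe sets in either direction and 5.46% higher. The median difference of the 10 probe sets was 0.47, and that of all probe sets tested was 0.02, with 5% of them below -0.60 and 5% above 0.58. A difference above 0 was seen in 52.3% of all probe sets and in all 10 of these. Both Satin arrays lay above all control arrays in 2 of the 10 and in 11.7% of all, and below all of them in 0 of the 10 and in 11% of all. On the signals as deposited, where the Satin arrays were brighter as a whole, that was so for 7 of the 10 and for 44.1% of all. All 10 passed the filter on dim probe sets. Without normalization 5 of the 10 passed the test (Atp4a, Slc4a2, Esrrg, Kcne2 and Aqp4 1434449_at), but 2016 of all probe sets did so too, and the median of all probe sets was shifted by 0.44. The median of the 10 was then 0.82.

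The order of the strain means was Satin, Beige, BL6 for 7 of the 10 probe sets, an order found in 19.4% of all probe sets tested. Slc4a2 and Kcnq1 had Beige lowest, and Ckb had Beige highest.

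Set against each control strain alone, the differences of Slc4a2 and Esrrg were of like size, while those of Kcne2, Atp4a and Atp4b were smaller against Beige than against BL6. The 2 comparisons share the Satin arrays and are not independent. Against Beige, 0 of 10 passed (0.657% of all probe sets did) and 2 had an unadjusted p under 0.05 in limma, both higher, where 4.19% of all were. In 9 of the 10 the difference was above 0, beside 51.6% of all. Slc4a2 exceeded Beige by 1.00 (SE 0.25, adjusted p = 0.194) and Esrrg by 0.94 (SE 0.37, adjusted p = 0.475), while Kcne2 differed by 0.51, Atp4a by 0.46 and Atp4b by 0.20. Against BL6, 0 of 10 passed (0.537% of all did) and 3 had an unadjusted p under 0.05, all higher, where 11.9% of all had such a p and 6.2% were higher. All 10 were above 0, beside 51.5% of all. Kcne2 exceeded BL6 by 1.10 (SE 0.35, adjusted p = 0.271), Esrrg by 1.08 (adjusted p = 0.314) and Slc4a2 by 0.86 (adjusted p = 0.229). The pump subunits exceeded BL6 by 0.75 for Atp4a and 0.48 for Atp4b (adjusted p = 0.432 and 0.462). Ckb was -0.13 against Beige and 0.30 against BL6. The differences of Kcnq1, Car2 and Aqp4 ran from 0.09 to 0.60 against Beige and from 0.16 to 0.65 against BL6.

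**Figure D2:**
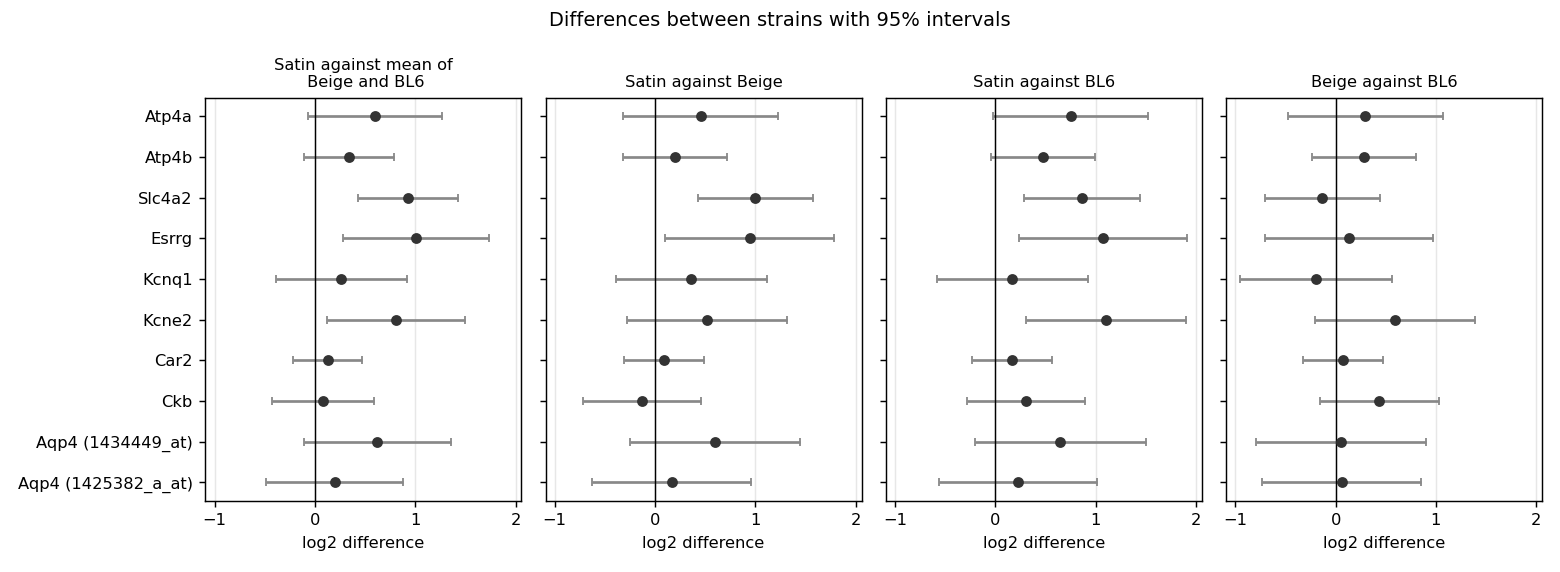
Fitted log2 differences of the 10 probe sets with 95% intervals from limma, in 4 panels: Satin against the mean of Beige and BL6, Satin against Beige, Satin against BL6, and Beige against BL6. The intervals of Slc4a2 and Esrrg lie above 0 in the first 3 panels and that of Kcne2 does so against both controls and against BL6, while all intervals of Beige against BL6 span 0. These intervals are not adjusted for the number of probe sets.

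Between the control strains, Beige and BL6, 0 of the 10 probe sets passed and 0 had an unadjusted p under 0.05. Over all probe sets, 0% passed and 5.18% had such a p in limma, 3.18% being higher in Beige. Of the 10, 8 were above 0, beside 50% of all. The largest differences were 0.59 for Kcne2 (SE 0.35, adjusted p = 0.859) and 0.44 for Ckb (SE 0.26, adjusted p = 0.859), both higher in Beige. Both Beige arrays lay above both BL6 arrays for Kcne2, Ckb and Atp4b, 3 of the 10, beside 16.7% of all probe sets. For Kcne2, Satin exceeded Beige by about as much as Beige exceeded BL6, so that its 3 strain means formed a ladder whose neighbouring steps did not pass the test.

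The arrays of replicate 1 and replicate 2 gave different sizes. Satin minus the mean of Beige and BL6 had a median over the 10 probe sets of 0.84 within replicate 1 and 0.12 within replicate 2, where the medians over all probe sets were 0.03 and 0.01. Within replicate 1 all 10 differences were positive, the largest being 1.51 for Esrrg, 1.45 for Kcne2, 1.35 for Slc4a2, 1.29 for Aqp4 1434449_at and 1.07 for Atp4a. Within replicate 2, 7 were positive, and 2 exceeded 0.5: Slc4a2 and Esrrg, both at 0.51. Kcne2 came to 0.17, Atp4a to 0.13 and Atp4b to 0.08 there, and Ckb to -0.38. Car2, at 0.14 and 0.12, and Kcnq1, at 0.34 and 0.19, differed least between the replicate numbers. Each of these values rests on 1 array per strain and has no error of its own.

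**Figure D3:**
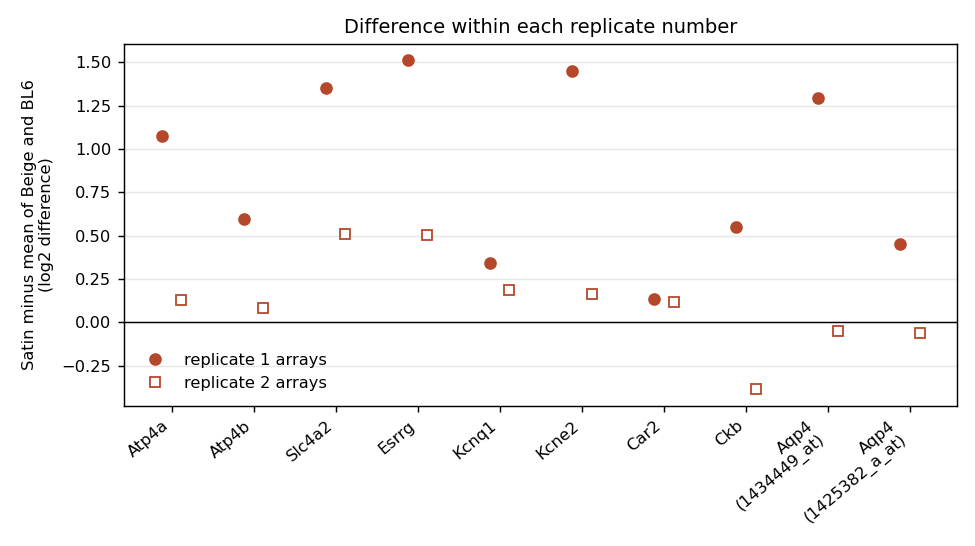
Satin minus the mean of Beige and BL6 (log2 difference) for each of the 10 probe sets within replicate 1 (filled circles) and within replicate 2 (open squares), 1 array per strain in each. The circles lie at or above the squares for every probe set, and the squares of Slc4a2 and Esrrg, at 0.51, are the only ones above 0.25.

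Several properties differed between these arrays. The acinar transcripts were abundant on the replicate 2 arrays of Satin and BL6 and less so on that of Beige. Atp4a was 12.70 on replicate 1 and 11.94 on replicate 2 in Satin, 12.14 and 11.59 in Beige, but 11.11 and 12.03 in BL6. Whether the acinar transcripts bear on these values was not tested. BL6 replicate 1, with the low Gapdh ratio, was the lowest array for 6 of the 10 probe sets, beside 23.4% of all: Atp4a, Esrrg, Kcnq1, Kcne2, Ckb and Aqp4 1434449_at. With the Gapdh ratio as a covariate, the median difference of the 10 probe sets was 0.29, and 8 were above 0. Both Satin ratios (1.18 and 1.16) lay above every control ratio (0.526 to 1.02). That covariate therefore also takes up part of the strain difference, and the 2 cannot be told apart. Without Satin replicate 1, the median difference was 0.13, with 7 above 0, and without Satin replicate 2 it was 0.88. In the 4 arrays lowest in acinar transcripts (Satin 1, both Beige arrays and BL6 1), 5 of the 10 passed in Satin against the controls. That fit has 1 residual degree of freedom, from the Beige pair, and assumes that the lone Satin and BL6 arrays vary like that pair. With the acinar signal as a covariate over all 6 arrays, 0 passed. Since that signal is high on 1 array of every strain, such a covariate can move the differences between strains only a little.

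Markers of the chief cell, the other secretory cell of the corpus gland, were read on the same arrays. Cblif, which encodes the gastric intrinsic factor, had signals of 5585.8 and 2891.3 in Satin, 3470.7 and 2770.7 in Beige, and 2076.7 and 3108.5 in BL6. On this deposited scale it was highest on Satin replicate 1 and lowest on BL6 replicate 1, as Atp4a was, and its normalized difference was 0.17 (adjusted p = 0.882). Of 5 chief cell probe sets all 5 were above 0, with a median of 0.17, and 1 rose: Pga5, a pepsinogen gene, by 3.12. Only 4 of these 5 were above 0 against Beige alone. Of 4 antral gland and neck mucous cell probe sets all 4 were above 0 (median 2.24), and 2 rose, both of Bpifb1, by 4.37 and 4.75. The other probe sets of that list did not pass, and its median lies between their values and those of Bpifb1. Against Beige alone, 3 of the 4 were above 0. Smooth muscle fell in 4 of 13 probe sets (median -0.94), enteroendocrine cells in 3 of 5, surface mucous cells in 1 of 5 (Muc5ac) and intestinal epithelium in 1 of 9 (Fabp2). Their part in the values of the acid secretion genes was not tested.

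The wider machinery of acid secretion had a median difference near 0. A list of 50 genes, from receptors and their signalling through potassium and chloride transport to membrane traffic, had 36 genes and 66 probe sets tested. Of these 0 rose and 1 fell, 33 of 66 were above 0, and the median was -0.0024. At an unadjusted p under 0.05, 5 were higher and 9 lower in limma. The probe set that fell was that of Sytl2, a Rab27 effector in granule docking. It had 9.0 and 9.01 in Satin, 9.84 and 9.67 in Beige, and 9.81 and 9.68 in BL6, a difference of -0.74 (SE 0.14, adjusted p = 0.0447). That call was lost on the signals as deposited (0.479), with median centring (0.325) and with scaling to the hybridization controls (0.449). The replicate number as a block (0.0664), the Gapdh covariate (0.135), no filter (0.0531) and no intensity trend (0.23) ended it too. So did leaving out any 1 of Satin 1, Satin 2, Beige 1, Beige 2 or BL6 1.

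Among 13 probe sets of 9 carbonic anhydrase genes, 1 rose and 0 fell, with a median of 0.05. The riser was Car9, a membrane-bound carbonic anhydrase, at 10.69 and 10.20 in Satin, 9.40 and 8.80 in Beige, and 9.16 and 9.45 in BL6 (difference 1.24, SE 0.21, adjusted p = 0.0323). Both Satin arrays lay above all control arrays, unlike those of Car2. The call was lost with the Gapdh covariate (0.16), with no filter (0.0642) and without the intensity trend (0.176). Leaving out Satin 1, Satin 2, Beige 1, Beige 2 or BL6 1 ended it too. Among 34 probe sets of parietal cell regulators and growth factors, 1 rose and 0 fell (median -0.05). It was Aldh1a1, a retinaldehyde dehydrogenase, at 11.54 and 11.27 in Satin, 10.62 and 10.55 in Beige, and 10.70 and 10.30 in BL6. Its difference was 0.86 (SE 0.16, adjusted p = 0.0447). This call was lost with median centring (0.0627), with no filter (0.0882) and without the intensity trend (0.23). It was also lost without Satin 1, Satin 2, Beige 1 or Beige 2.

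Genes of energy supply lay mostly above 0 without a call. Of 41 probe sets of 25 oxidative phosphorylation genes, 33 were above 0 with a median of 0.19, and 0 rose or fell. At an unadjusted p under 0.05, 9 were higher and 0 lower in limma. The median was 0.11 in Satin against Beige, 0.33 in Satin against BL6 and 0.27 in Beige against BL6, where 33 of 41 were above 0 as well and 10 were higher at an unadjusted p under 0.05. Atp5a1, the alpha subunit of ATP synthase, had the smallest p of them on 1423111_at, with 12.26 and 12.22 in Satin, 11.66 and 11.89 in Beige, and 11.24 and 11.47 in BL6 (0.67, SE 0.14, adjusted p = 0.0706). Its other probe sets differed by -0.11 and 0.12. Next by p was Cyc1, cytochrome c1 (0.48, adjusted p = 0.168). Of 28 probe sets of creatine kinase and fuel use genes, 22 were above 0 with a median of 0.13, and 0 passed, 5 being higher and 1 lower at an unadjusted p under 0.05. Acadm, a fatty acid oxidation enzyme, and Idh3a, an enzyme of the citric acid cycle, led them at 0.62 and 0.49 (adjusted p = 0.156 and 0.199).

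Relatives of the channel genes lay on the other side of 0. Of 7 probe sets of KCNQ, KCNE and CLIC relatives, 0 passed, 0 were above 0 and the median was -0.55, with 5 lower at an unadjusted p under 0.05. Kcne3, a related accessory subunit, was 6.94 and 8.06 in Satin, 8.83 and 9.38 in Beige, and 9.47 and 8.42 in BL6, below every control array in both Satin arrays (-1.53, SE 0.36, adjusted p = 0.11). Clic4, the related intracellular channel protein, differed by -0.58 on its probe set with the smallest p (adjusted p = 0.171), and its 3 probe sets, which the wider list above holds too, were all negative. Among 7 aquaporin probe sets other than Aqp4, 1 fell and 0 rose (median -0.06). It was 1450460_at of Aqp3, a water and glycerol channel, at 7.61 and 7.77 in Satin, 8.90 and 8.50 in Beige, and 8.51 and 8.93 in BL6 (-1.02, SE 0.19, adjusted p = 0.0466). The other Aqp3 probe sets differed by -0.64 and -0.71 and did not pass (0.372 and 0.411). The call was lost with the replicate number as a block (0.0744) and without Satin 1 (0.426), Satin 2 (0.183), Beige 1 (0.208) or Beige 2 (0.112). None of these lists had a called probe set in Satin against Beige, Satin against BL6 or Beige against BL6.

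**Figure D4:**
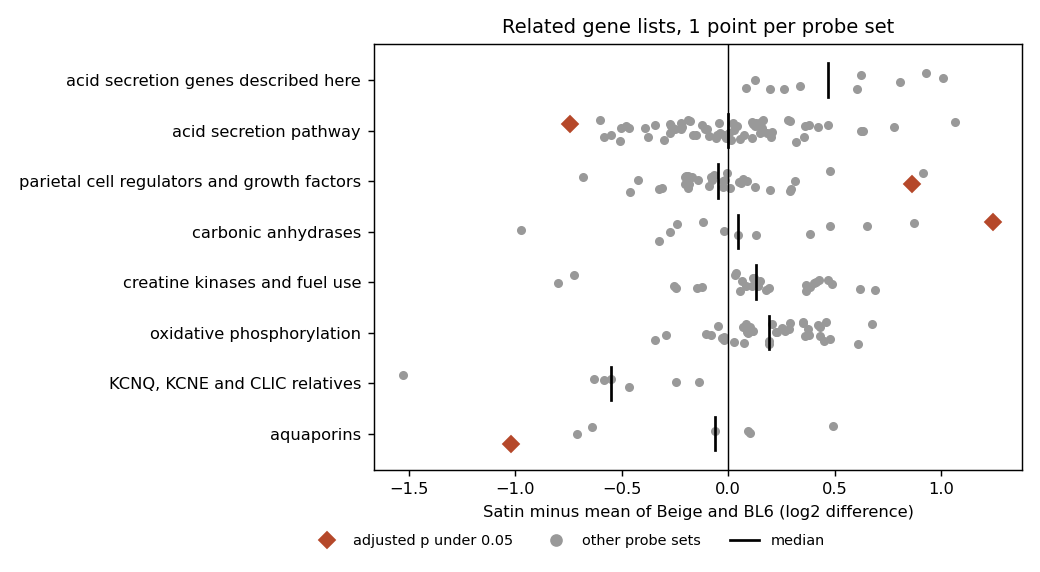
Satin minus the mean of Beige and BL6 (log2 difference) of each tested probe set, 1 point each, for the 10 probe sets of acid secretion genes (top row) and for 7 related lists; diamonds mark an adjusted p under 0.05 and bars the medians. All 10 points of the top row lie above 0 (median 0.47), all 7 points of the KCNQ, KCNE and CLIC relatives lie below 0, and the 4 diamonds are Sytl2, Aldh1a1, Car9 and Aqp3.

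Probe sets with the profile most like that of the proton pump were found by the root mean square distance from the mean profile of Atp4a and Atp4b, each centred on its mean over the 6 arrays. Of 15838 probe sets, the nearest were those of Hibadh (distance 0.0731 on the log2 scale), Gpaa1 (0.0828), Ldhb (0.0836), Ankrd10 (0.0846) and Parp1 (0.0907). Hibadh, a mitochondrial enzyme of valine breakdown, had 10.04 and 9.48 in Satin, 9.74 and 9.35 in Beige, and 9.07 and 9.44 in BL6. Atp4a and Atp4b themselves lay at 0.175 each (rank 117.5), equal by construction since the reference is their mean. Of the other acid secretion probe sets, the 2 of Aqp4 were closest, at 0.190 and 0.191 (ranks 180 and 189). Ckb followed at 0.22 (rank 382), then Kcne2 at 0.252 (rank 795) and Slc4a2 at 0.285 (rank 1471). Car2 (0.362, rank 4180), Esrrg (0.364, rank 4266) and Kcnq1 (0.484, rank 9788) were farthest. A distance over 6 arrays that share their normalization describes likeness only.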

How the data were processed

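The deposited table holds 22690 probe sets with 1 linear intensity for each of the 6 arrays. Trizol RNA and biotinylated cRNA were used, per the labels. How the authors computed or scaled these intensities is not given in the sources used here. Titles gave the strain and replicate number, and 0 sample columns were left unused.

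The 64 control probe sets were left out. After addition of 32, signals were log2 transformed, and quantiles were normalized over the other 22626. Of these, 20380 carried a single symbol, 691 several and 1555 were not listed. The lowest 30% by mean over the arrays (below 5.74) were left out, which left 15838. Strains were compared with limma 3.58.1 in R 4.3.3 (lmFit, eBayes with intensity trend, two-sided) in 1 fit of all arrays, with 3 residual degrees of freedom and 8.95 after moderation. Calls were made at 0.05 after Benjamini-Hochberg adjustment over the 15838 probe sets, and "rose" and "fell" are used of calls only. The 2 arrays per strain limit the precision. In simulations of Satin against the controls, 200 of 15838 probe sets were changed in each of 10 runs. Of changes of 0.5 log2 units 0.4% were called, of changes of 1 unit 17.4% and of changes of 2 units 69%. There were 3.7 false calls per run.

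The genes and lists were chosen with earlier results of these data known. Beside the acid secretion probe sets, the rule names from each related list up to 6 called probe sets, or the 2 with the smallest p, up to 3 markers of another cell type, and the 5 nearest profiles. A list's probe sets were counted with no set test. Deviations from the strain mean correlated between equal replicate numbers at 0.213 (Satin and Beige), 0.31 (Satin and BL6) and 0.14 (Beige and BL6). All were above 0.1, so the numbers may pair the arrays. The main fit holds no term for the replicate number, so its errors, p-values and calls ignore such a pairing. A replicate block was fitted as an alternative, with its results given below. Of 22 alternatives of normalization, filter, floor, fit and arrays, 2 were added after the data were seen. The acid secretion probe sets were computed again under 19 to 22 of them, depending on the comparison and the probe set, and the named probe sets of related lists under 19. Marker genes were not.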

Additional observations from a re-analysis of the deposited data

How the results depend on the processing

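Counts of calls among the 10 probe sets and over all tested are given for Satin against the mean of the controls, against Beige and against BL6, then for Beige against BL6 where it changed. The counts were 0 of the 10 in each, and 161, 104, 85 and 0 over all. Calls among the 10 appeared with signals as deposited (5, 1 and 7), with scaling to the hybridization controls (7, 1 and 8), without Satin replicate 2 and in the 4 arrays lowest in acinar transcripts (5, 3 and 6), the last chosen after seeing the data. Leaving out 1 array gave 0 to 2 (2, Slc4a2 and Kcne2, without Satin replicate 2), 0, 0 to 1 and 0. The replicate block gave 0 of the 10 in each comparison and 143, 81, 65 and 0 over all. It ended the calls of Sytl2 (0.0664) and Aqp3 (0.0744) but not those of Aldh1a1 and Car9, and was not run for single marker genes. Of 19 alternatives, Sytl2 kept its call in 7, Aldh1a1 in 12, Car9 in 11 and Aqp3 in 7, and all 4 lost it with no filter and without the intensity trend.

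Over all probe sets the counts were 2016 (1946 higher, 70 lower), 198, 2679 and 1 as deposited, 2941 (2866 higher, 75 lower), 196, 4095 and 1 with hybridization scaling, 101, 56 and 48 with no filter, 92, 37 and 22 with probe sets averaged per gene, and 48, 31 and 24 without the intensity trend. They were 573, 399, 597 and 153 in the 4 arrays. The Gapdh covariate gave 96 against the controls, 45 against BL6 and 12 for Beige against BL6, robust eBayes 135 against BL6, and a fit of only the strains compared 175 against Beige and 35 against BL6. Leaving out 1 array gave 48 to 403, 9 to 173, 33 to 407 and 0 to 11. Median centring gave 60 higher and 52 lower against the controls, where the main setting gave 55 and 106.

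Signs that turned were all of differences that had not passed. As deposited, Ckb was 0.25 against Beige, and between Beige and BL6 Slc4a2 was 0.14 and Kcnq1 0.0106. With hybridization scaling these were 0.22, 0.21 and 0.0828. Under median centring Car2 was -0.14, -0.11, -0.17 and -0.061 in the 4 comparisons, and Slc4a2 0.0183 between Beige and BL6. With the Gapdh covariate Kcnq1 was -0.27 and Ckb -0.19 against the controls, and -0.65 and -0.12 against BL6. Between Beige and BL6 it gave Atp4a -0.21, Esrrg -0.40 and Aqp4 -0.32 and -0.0784. In the 4 arrays Ckb was 0.22 against Beige, and Kcnq1 0.35 and Car2 -0.11 between Beige and BL6. The acinar covariate gave Kcnq1 0.0037 and Aqp4 1425382_a_at -0.0426 there. Leaving out 1 array gave, against the controls, Atp4b -0.017 to 0.72, Kcnq1 -0.0073 to 0.54, Ckb -0.26 to 0.43 and Aqp4 1425382_a_at -0.18 to 0.56. Against Beige it gave Atp4b -0.16 to 0.58, Kcne2 -0.11 to 1.13, Ckb -0.48 to 0.22 and Aqp4 1425382_a_at -0.21 to 0.54. Against BL6 it gave Kcnq1 -0.38 to 0.71, Car2 -0.0223 to 0.34, Ckb -0.0453 to 0.65 and Aqp4 1425382_a_at -0.15 to 0.59. Between Beige and BL6 it gave Atp4a -0.16 to 0.73, Esrrg -0.38 to 0.67, Kcnq1 -0.75 to 0.35, Car2 -0.11 to 0.26, and Aqp4 -0.29 to 0.39 and -0.30 to 0.41. Slc4a2 and Esrrg stayed above 0 against the controls under all 21 alternatives, from 0.53 to 1.45 and from 0.50 to 1.47. Atp4a (0.12 to 1.18), Kcne2 (0.19 to 1.51) and Aqp4 1434449_at (0.07 to 1.31) did so too. The causes were not tested.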
